A study of Arabidopsis thaliana with 21 samples.

Results

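SMB (SOMBRERO, AT1G79580), BRN1 (BEARSKIN 1, AT1G33280), BRN2 (BEARSKIN 2, AT4G10350) and FEZ (AT1G26870) encode the NAC transcription factors of the Arabidopsis root cap, the tissue that covers the root tip. They were taken by locus, as 4 of 27432 nuclear protein-coding genes, and every enriched region that touched one of them or lay within 3 kb of it was examined. FEZ is known to promote the formative divisions of root cap stem cells. SMB is known to restrain those divisions and to drive the differentiation and programmed death of lateral root cap cells. BRN1 and BRN2 are known to act beside SMB in root cap maturation and in the detachment of its outer cells. Polycomb repressive complex 2 (PRC2) trimethylates histone H3 at lysine 27, and the resulting mark, H3K27me3, is known from repressed developmental genes in plants.

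Binding was profiled by chromatin immunoprecipitation and sequencing (ChIP-seq) in plants 30 h old, for which the labels name no dissected organ, under days of 16 h light and nights of 8 h, without treatment. FIE, a WD40 subunit of PRC2, was precipitated with anti-HA from C24 plants of the fie-11 mutant that carried FIE-HA under the FIE promoter. AZF1, a C2H2 zinc finger protein, and BPC1, a BASIC PENTACYSTEINE protein of the family that binds GA repeats, were precipitated with anti-Myc from Col plants carrying gAZF1-Myc or gBPC1-Myc. H3K27me3 was precipitated from Col plants without a transgene. The controls named in the series design were input of the FIE-HA plants in C24, input of Col plants, which carried gAZF1-Myc, and histone H3 ChIP from Col plants without a transgene. These 7 groups held 3 samples each, labelled as biological replicates. The deposited values were 4 lists of enriched regions, 1 for each protein or mark, so there is no spread between replicates, no depth per sample and no test between genes. The chromatin of root cap cells was not separated from that of other cells, so a mark in few cells and a weak mark in many cannot be told apart.

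The 4 genes each carried a different combination of lists. SMB carried all 4 lists with 10 regions, BRN2 carried H3K27me3 with a single AZF1 region, FEZ carried H3K27me3 with a single BPC1 region, and BRN1 carried none. H3K27me3 lay at 3 of the 4 genes, against 36.7% of all protein-coding genes within the same 3 kb. AZF1 lay at 2 of the 4, against 17.8%, and BPC1 at 2 of the 4, against 10.5%. FIE lay at 1 of the 4, against 17.0%. With 4 genes chosen by name these counts are a description, and they are not tested.

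**Figure D1:**
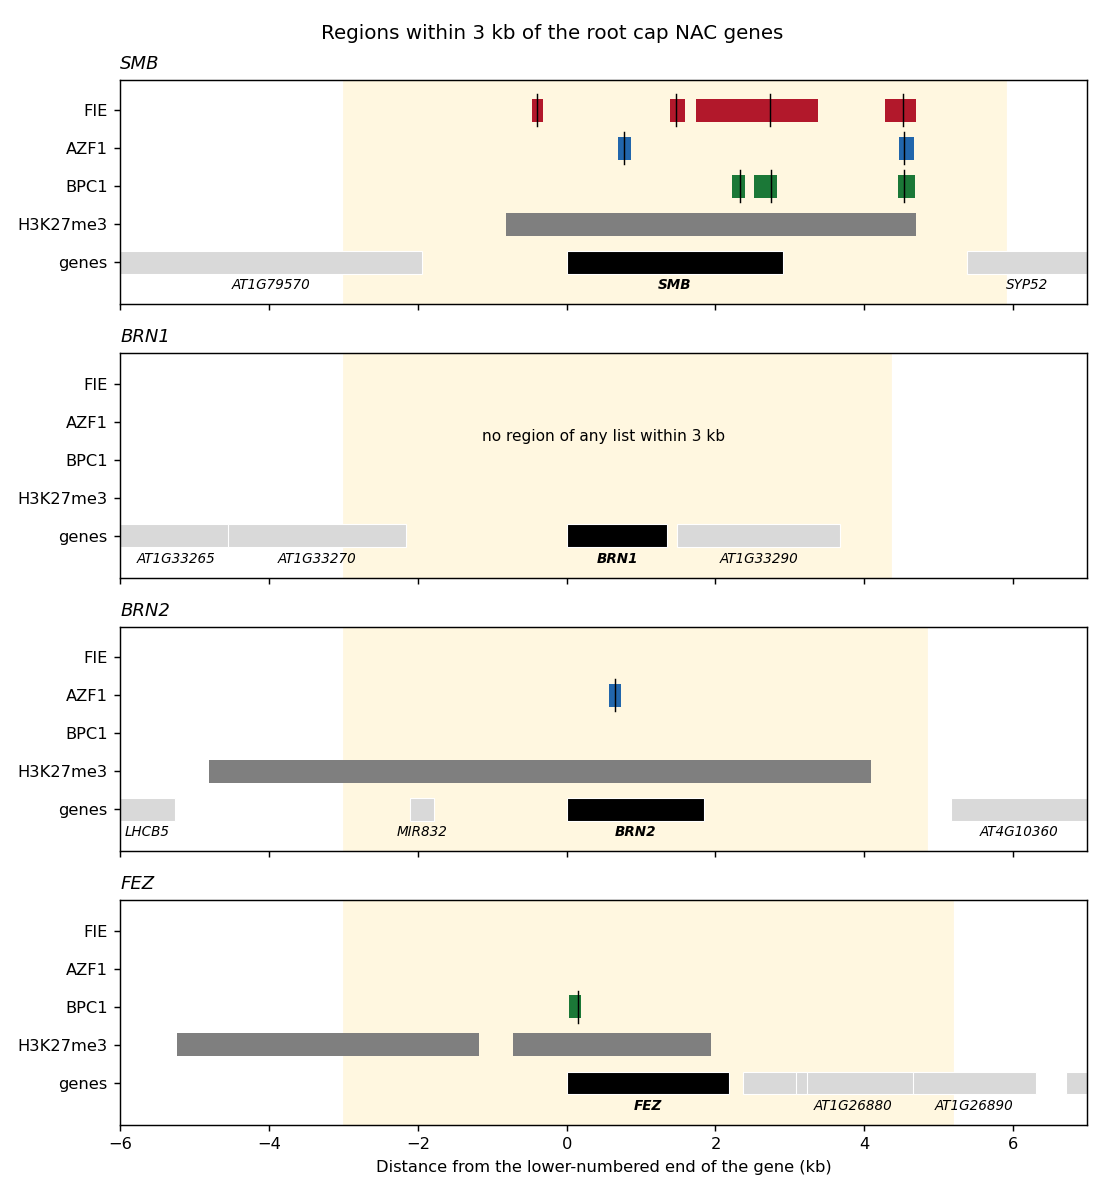
Each panel shows 1 gene in black, its annotated neighbours in light grey, and the regions of the FIE (red), AZF1 (blue), BPC1 (green) and H3K27me3 (dark grey) lists within 3 kb, drawn to scale; the x axis is the distance in kb from the lower-numbered end of the gene, black ticks are summits of the narrow regions and the shaded band is the gene with 3 kb on both sides. SMB has 10 regions, BRN1 has 0, BRN2 has 2 and FEZ has 3.

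SMB, the differentiation factor, lay inside a single H3K27me3 domain of 5510 bp on chromosome 1, from 29939993 to 29945502 (TAIR10). The domain covered 100% of the gene and 61.8% of the gene together with 3 kb on both sides. Its fold enrichment over histone H3 was 2.88, below the list median of 2.98, with a −log10 q of 12.8 against a list median of 13.4. Its width lay at the 77.9th percentile of the H3K27me3 list, so the domain was wider than most and lower than most. All 9 narrow regions at SMB lay wholly inside it. The first of them began 346 bp inside one edge and the last ended 8 bp inside the other.

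FIE had 4 regions at SMB, and 252 protein-coding genes (0.919%) had as many or more. The highest FIE region, from 29942537 to 29944175, was 1639 bp wide, with a fold of 9.84 and a −log10 q of 46.9. It ran over the higher-numbered end of the gene, with 1177 bp inside the gene and its summit at 94.1% of the gene's length from the lower-numbered end. Its fold was at the 97.0th percentile of the FIE list, and its width at the 97.2nd. The region from 29945078 to 29945494 had a fold of 5.51 and a −log10 q of 19.3 and lay 1365 bp beyond the gene. The other two FIE regions, from 29940339 to 29940481 and from 29942187 to 29942393, were only 143 and 207 bp wide. Both had a fold of 4.62 and a −log10 q of 10.03. Exactly these values were held by 73 FIE regions, including these 2. A lower −log10 q was found in 29 of 5006, so these 2 regions were near the floor of the list by −log10 q. By fold they lay at the 47.2nd percentile, just under the list median, while the other two FIE regions of SMB were above the list medians of both fold and −log10 q.

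BPC1 had 3 regions at SMB, and 214 protein-coding genes (0.780%) had as many or more. The region from 29943316 to 29943627 had a fold of 3.58 and a −log10 q of 14.4, and its summit lay 2 bp from the summit of the highest FIE region. The region from 29943029 to 29943202, with a fold of 3.12 and a −log10 q of 10.3, fell inside the same FIE region, 408 bp from its summit. The region from 29945261 to 29945486 had a fold of 3.20 and a −log10 q of 13.8. BPC1 regions at SMB thus lay where FIE had its higher regions, and neither of the FIE regions with a −log10 q of 10.03 overlapped BPC1 or AZF1.

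AZF1 had 2 regions at SMB, and 600 protein-coding genes (2.19%) had as many or more. These regions differed in height and in the lists they overlapped. The region from 29945269 to 29945467 had a fold of 3.80, at the 93.1st percentile of the AZF1 list, and a −log10 q of 20.1. The region inside the gene, from 29941492 to 29941671, had a fold of 2.37, at the 6.68th percentile, and a −log10 q of 11.4. The low one overlapped H3K27me3 alone, as did 323 of 4464 AZF1 regions (7.24%). The high one overlapped FIE, BPC1 and H3K27me3, as did 414 AZF1 regions (9.27%).

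The FIE, AZF1 and BPC1 regions beyond the higher-numbered end of SMB lay on top of each other. The FIE summit was 5 bp from that of AZF1 and 12 bp from that of BPC1, and the AZF1 and BPC1 summits were 7 bp apart. Close summits were common where regions overlapped. Over all nuclear regions the median distance was 14 bp in 1502 overlapping pairs of FIE and AZF1, 15 bp in 1391 pairs of FIE and BPC1, and 5 bp in 1464 pairs of AZF1 and BPC1. A distance of at most 2 bp, as at the highest FIE region of SMB, was found in 12.1% of the FIE and BPC1 pairs. AZF1 and BPC1 were both pulled down by Myc, and the design gives them 1 common Col input, so a shared site and a shared control cannot be told apart in these lists.

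This triple site was nearer to the next gene than to SMB. It lay 1365 bp (FIE), 1556 bp (AZF1) and 1548 bp (BPC1) from SMB, and 691, 718 and 699 bp from SYP52, which encodes a syntaxin. The H3K27me3 domain ended 683 bp short of SYP52. On the other side, the domain stopped 1137 bp short of AT1G79570, and the FIE region at that end lay 322 bp from SMB and 1483 bp from AT1G79570. The domain thus held SMB and no other annotated gene. The nearest further H3K27me3 region, on either side, lay 59.6 kb from SMB. The median gap between neighbouring H3K27me3 regions was 15367 bp, an unlike measure, since it runs between the edges of regions and not from a gene. The nearest further FIE region lay 61.1 kb away, BPC1 62.0 kb and AZF1 28.9 kb, and median gaps of these lists are not given here. Together, 117 protein-coding genes (0.427%) had 10 or more regions of the 4 lists within 3 kb.

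**Figure D2:**
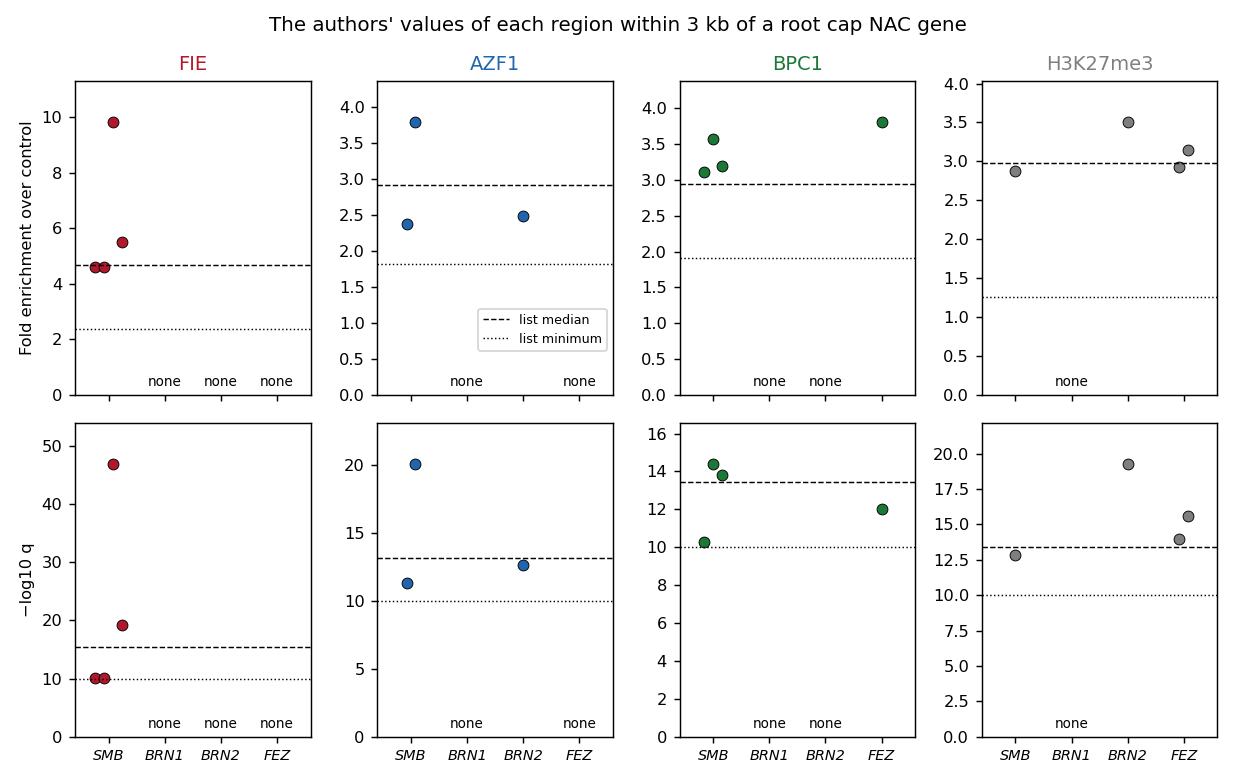
The authors' fold enrichment over control (top row) and −log10 q (bottom row) of every region within 3 kb of each gene, with 1 column of panels for each list; each point is 1 region, the dashed line is the median of the whole list and the dotted line its minimum. The highest FIE region of SMB has a fold of 9.84, against a list median of 4.70, while the H3K27me3 fold of SMB, 2.88, is below that of BRN2, 3.51.

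BRN1 had 0 regions of any list within 3 kb, the state of 48.8% of protein-coding genes. Its share of H3K27me3 cover was 0%, as for 80.7% of genes. The nearest H3K27me3 region lay 6.57 kb away, close to the median of 6.46 kb over all genes, and had a fold of 3.09 (chromosome 1, 12080534 to 12083007). The nearest AZF1 region lay 16.2 kb away, FIE 17.9 kb and BPC1 17.9 kb. These distances for BRN1 stand beside medians over all genes of 13.9 kb for AZF1, 16.0 kb for FIE and 26.6 kb for BPC1. BRN1 is the shortest of the 4 genes, 1355 bp in the table used, and among 4453 protein-coding genes within 20% of that length, 45.9% had none of the lists. Each list starts at a −log10 q of 10, so a weaker enrichment at BRN1 would not be seen.

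BRN2, the gene named as the partner of BRN1, lay in the widest H3K27me3 domain of the set. The domain was 8902 bp wide (chromosome 4, 6410311 to 6419212), with a fold of 3.51 and a −log10 q of 19.3. All 3 values were at the 91st to 92nd percentile of the list (width 91.6, fold 91.5, −log10 q 91.3). It covered 100% of the gene, as for 11.8% of protein-coding genes, and 90.4% of the gene with 3 kb on both sides. BRN2 and BRN1 therefore stood at opposite ends for the mark, 100% against 0% of the gene. The domain also held the microRNA gene MIR832, a locus named here after its place was seen. It stopped 462 bp short of LHCB5, which encodes a light-harvesting protein, and 1072 bp short of AT4G10360. AT4G10330 was also within 3 kb of it.

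A single AZF1 region lay inside BRN2, from 6415688 to 6415855, with its summit at 35.2% of the gene's length from the lower-numbered end. Its fold of 2.49 was at the 12.9th percentile of the AZF1 list and its −log10 q was 12.6, below the list median of 13.2. It resembled the lower AZF1 region of SMB, which had a fold of 2.37 and likewise overlapped H3K27me3 alone. The summit of that SMB region lay at 26.6% of the gene's length from the lower-numbered end. Without strand, the positions in these genes cannot be compared. FIE was 13.5 kb from BRN2, against a median of 16.0 kb over all genes. BPC1 was 118 kb away, and 6.40% of protein-coding genes lay farther from BPC1. H3K27me3 with AZF1 and neither of the others, the combination of BRN2, was found at 791 protein-coding genes (2.88%), or 7.86% of those with H3K27me3.

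FEZ, the division factor, had 2 H3K27me3 regions in place of a continuous domain. One, from 9312216 to 9314869 on chromosome 1, was 2654 bp wide with a fold of 3.15 and a −log10 q of 15.6 and covered 88.4% of the gene. The other, from 9307699 to 9311757, was 4059 bp wide with a fold of 2.93 and a −log10 q of 13.9 and lay 1179 bp from the gene. The gap between them was 458 bp. Gaps that short made up 3.33% of the 3935 gaps between neighbouring H3K27me3 regions, the shortest of which was 393 bp. The uncovered part of FEZ was its higher-numbered end, and the region stopped 436 bp short of AT1G26880, the next gene on that side. AT1G26890 was also within 3 kb of it.

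A single BPC1 region lay just inside the lower-numbered end of FEZ, from 9312964 to 9313124, with its summit at 6.72% of the gene's length. Its fold of 3.81 was at the 87.0th percentile of the BPC1 list, above all 3 BPC1 folds at SMB. Its −log10 q of 12.0 was at the 33.9th percentile, below 2 of those 3. It overlapped H3K27me3 without FIE or AZF1, as did 79 of 2622 BPC1 regions (3.01%). H3K27me3 with BPC1 and neither of the others, the combination of FEZ, was the rarest among the 4 genes, at 163 protein-coding genes (0.594%). FIE lay 12.7 kb from FEZ and AZF1 14.4 kb. H3K27me3 without FIE was common, since 55.1% of the 10060 protein-coding genes with H3K27me3 had none of the other lists. FIE was precipitated in C24 and the other 3 in Col, so for BRN2 and FEZ a mark without FIE and a difference between accessions cannot be told apart.

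**Figure D3:**
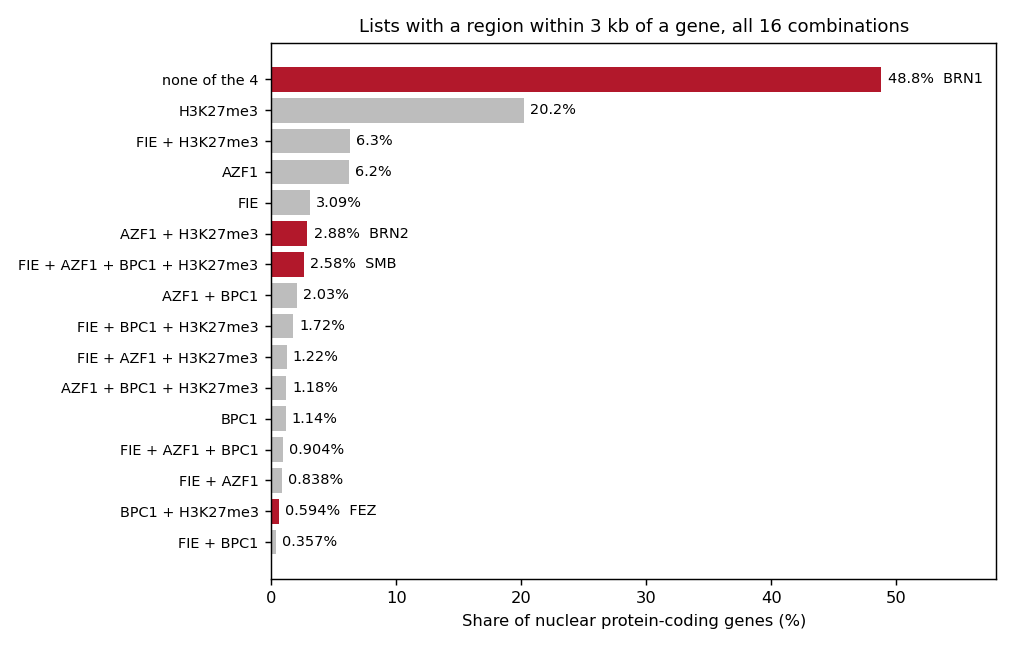
Share of 27432 nuclear protein-coding genes (x axis, %) with each combination of lists within 3 kb (y axis); red bars hold 1 of the 4 genes, named beside the bar, and grey bars hold none. BRN1 is in the most common combination (48.8%), BRN2 and SMB are in combinations of 2.88% and 2.58%, and FEZ is in one of 0.594%.

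The window of 3 kb did not divide close cases. The region farthest from its gene among those counted was the AZF1 region 1556 bp from SMB, and the nearest region left out was an H3K27me3 region 6.03 kb from BRN2. SMB, FEZ and BRN2 were 2911, 2187 and 1842 bp long in the table used. Among 6804 protein-coding genes within 20% of the length of SMB, 2.65% had all 4 lists, against 2.58% of all protein-coding genes.

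**Figure D4:**
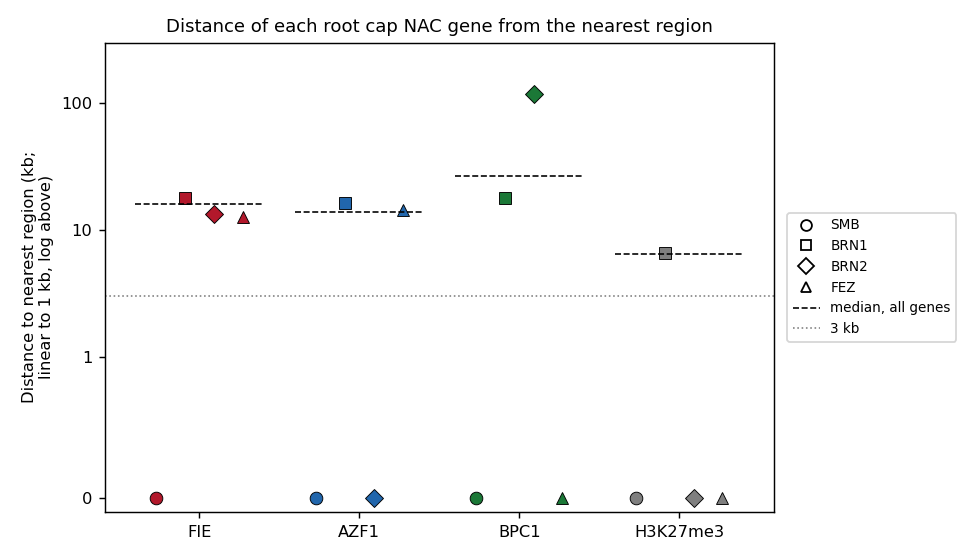
Distance in kb from each gene to the nearest region of each list, on an axis that is linear to 1 kb and logarithmic above; a circle, square, diamond and triangle stand for SMB, BRN1, BRN2 and FEZ, the dashed lines are medians over all protein-coding genes and the dotted line is 3 kb. A point at 0 means that a region touches the gene; the FIE distances of BRN1, BRN2 and FEZ lie between 12.7 and 17.9 kb, near the median of 16.0 kb.

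The VND and NST genes, NAC factors of xylem vessels and secondary walls that are close relatives of SMB and the BEARSKINs, were set beside them. FIE lay at 1 of the 4 root cap genes and at 9 of the 10 VND and NST genes, with NST3 the exception. H3K27me3 lay at 3 of the 4 and at 8 of the 10, AZF1 at 2 of the 4 and 5 of the 10, and BPC1 at 2 of the 4 and 6 of the 10. The shares over all protein-coding genes were 17.0% for FIE, 36.7% for H3K27me3, 17.8% for AZF1 and 10.5% for BPC1. The state of BRN1, with no list, was found at 0 of the 10, against 48.8% of all protein-coding genes. All 4 lists, as at SMB, were found at VND2, with a highest FIE fold of 6.30, and at VND3, with 5.61. Over all protein-coding genes the share with all 4 lists was 2.58%. The highest FIE fold of SMB, 9.84, was exceeded in this list by NST1 with 12.2, where BPC1 and H3K27me3 were present without AZF1, and by VND4 with 10.5, where AZF1 and H3K27me3 were present without BPC1. VND7, with a FIE fold of 6.69, had the lists of VND4, VND5, with 6.50, had those of NST1, and VND6, with 4.14, had FIE, AZF1 and BPC1 without H3K27me3. Among the 97 genes named as NAC domain proteins other than the 4, which include the VND and NST genes, FIE lay at 39, AZF1 at 25, BPC1 at 19 and H3K27me3 at 48, and all 4 lists at 10. As shares these are 40.2%, 25.8%, 19.6%, 49.5% and 10.3%. The state of BRN1, with no list, was found at 34 of the 97 (35.1%).

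**Figure D5:**
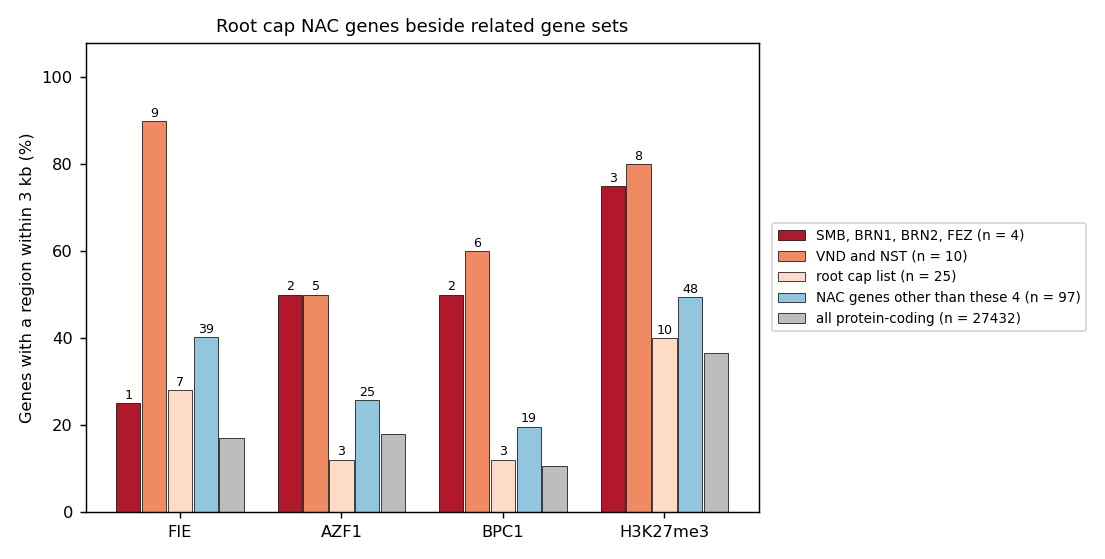
Share of genes with a region within 3 kb (y axis, %) in each list (x axis), for SMB, BRN1, BRN2 and FEZ, the 10 VND and NST genes, the root cap list of 25 genes, the 97 NAC genes other than the 4, and all protein-coding genes; the number over a bar is its count of genes. FIE lies at 1 of the 4 root cap NAC genes and at 9 of the 10 VND and NST genes.

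A list of 25 other genes, here called the root cap list, was also looked at. It held 8 genes linked to root cap cell death, 5 of cell wall change and detachment, and 12 of root stem cells and patterning. The list was thus not confined to genes of the root cap. FIE lay at 7 of the 25, AZF1 at 3, BPC1 at 3 and H3K27me3 at 10, while 13 had none of the lists, the state of BRN1. These are shares of 28% for FIE, 12% for AZF1, 12% for BPC1, 40.0% for H3K27me3 and 52% for none. Over all protein-coding genes the shares were 17.0%, 17.8%, 10.5%, 36.7% and 48.8%, in the same order. The FIE share was above that of all genes, the AZF1 share was below it, and the others were near it. With 25 genes these differences were not tested. Of the 7 genes with FIE, 5 were root stem cell and patterning genes, 1 was a cell death gene and 1 a detachment gene. With gene bodies or 500 bp, FIE lay at 4 of the 25, and the share of all genes in those windows is not given here. Of 8 genes linked to the death of root cap cells under SMB, 3 had H3K27me3 within 3 kb, 1 had FIE, and 0 had AZF1 or BPC1. The share with H3K27me3, 37.5%, was near the 36.7% of all protein-coding genes. The share with FIE, 12.5%, rests on 1 gene and stands beside 17.0% of all, so no difference can be read from it. Of the 3 genes with H3K27me3, all without FIE, the ribonuclease gene RNS3 was covered over 100% of its length, the nuclease gene BFN1 over 50.9% and AT4G04460 over 0%. H3K27me3 without any other list, as at these 3 genes, was the state of 55.1% of protein-coding genes with H3K27me3. Of 5 genes of cell wall change and detachment, 1 had FIE and 2 had H3K27me3, against 17.0% and 36.7% of all protein-coding genes, 0 had AZF1 or BPC1 and 3 had none of the lists. IDL1, a peptide gene of the abscission family, had FIE with H3K27me3 (folds 4.203 and 3.205), and AT1G65570 had H3K27me3 alone, over 100% of its length. Of 12 root stem cell and patterning genes, 5 had FIE (41.7%), 3 AZF1 (25%), 3 BPC1 (25%) and 5 H3K27me3 (41.7%), and 6 had none of the lists. PLT2, a PLETHORA gene of the root stem cell niche, shared all 4 lists with SMB, with highest folds of 8.74 for FIE, 3.92 for AZF1, 6.18 for BPC1 and 3.14 for H3K27me3, against 9.84, 3.80, 3.58 and 2.88 at SMB. PLT1 had FIE (7.58), BPC1 (3.55) and H3K27me3 (3.50), and BBM, a further gene of the PLETHORA group, had FIE (8.04), AZF1 (3.82) and H3K27me3 (2.98).

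Genes with the most similar values were sought over the 4 lists, by the Euclidean distance between the percentiles of the highest fold within 3 kb, with 0 where a list had no region. Nearest to SMB were AT2G32550, at a distance of 9.41 percentile points, and the neighbouring genes AT5G66960 and AT5G66970, both at 12.8. Nearest to BRN2 were AT3G10610 and its neighbour NUDX26, both at 0.915, and AT5G15040 at 2.70. Nearest to FEZ were HDG9, a homeodomain gene, at 4.49, and AT4G14272 and AT4G14276, both at 11.4. BRN1, with no region, was not compared. With the percentile of −log10 q in place of that of fold, 0 of the 3 nearest genes were the same for SMB, BRN2 or FEZ, so these likenesses depend on the measure used.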

How the data were processed

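Reads were processed with Bowtie2, MACS2 2.1.1.20160309 and bedtools against TAIR10, per the submitters' processing notes. Settings, and how replicates were combined, are not given in the sources used. The deposited lists give the authors' fold enrichment of each region over its control, a ratio, with −log10 q and a score, which is 10 times −log10 q rounded down in 100% of regions. All are the authors' values per region in the MACS2 layout, which in the narrow lists also gives the summit.

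Regions on the 5 nuclear chromosomes were used, 5006 for FIE, 4464 for AZF1, 2622 for BPC1 and 3940 for H3K27me3, with 1-based coordinates. Gene names and positions came from a RefSeq table of TAIR10.1, taken to be numbered as TAIR10, and no gene coordinate is printed. As a check, 50.4% of BPC1 summits lay in protein-coding genes, against 36.2% to 39.2% after shifts of 1 or 2 kb, and FIE and AZF1 also had their highest share at no shift. The table has no strand, so ends of genes are named by coordinate, and exons, introns and UTRs were not used here.

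A gene had a list when any base of a region touched it or lay within 3 kb. A percentile is the share of nuclear regions of the list at or below a value. Intervals were computed in Python 3.11.15 with pandas 2.3.3 and numpy 2.4.6 and tested on simulated data. No p-value was computed. Named genes were the 4 genes, protein-coding genes sharing a region with them, list genes in at least 3 lists and the 3 genes most like each; BFN1, RNS3, AT4G04460, IDL1, AT1G65570 and NST3 were named after their values were seen. The 4 genes, the lists and the rules were chosen with earlier results of these data known. Planned motif searches were not run, since no sequence was used here. Other windows, summits, stricter −log10 q and a larger overlap were tried as alternatives.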

Additional observations from a re-analysis of the deposited data

How the results depend on the processing

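The lists present at SMB, BRN1, BRN2 and FEZ were the same with gene bodies alone, with 500 bp, 1 kb, 2 kb and 5 kb, and with summits or midpoints within 3 kb. They changed with stricter regions, for which the shares over all protein-coding genes are not given here. With regions at or above the median −log10 q of their list, AZF1 lay at 1 and BPC1 at 1 of the 4 genes (SMB in both), and 0 genes had all 4 lists, because the H3K27me3 domain of SMB fell out and its covered share became 0%; BRN2 and FEZ kept H3K27me3 alone. With the upper quartile, AZF1 lay at 1, BPC1 at 0 and H3K27me3 at 1 (BRN2), all 4 lists at 0 and no list at 2 (BRN1 and FEZ), while SMB kept FIE and AZF1. FIE at SMB remained under every alternative run. AZF1 at SMB also remained, but through different regions. Gene bodies, 500 bp and 1 kb kept only the region with a fold of 2.37, and stricter regions only the one 1556 bp from SMB. All 16 overlaps between regions covered at least 50% of the shorter region.

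In the root cap list, gene bodies and 500 bp each gave 4 genes for FIE, 1 for AZF1 and 1 for BPC1. The median −log10 q gave 4 for FIE and 6 for H3K27me3, and the upper quartile 3 for FIE, 1 for AZF1, 1 for BPC1 and 4 for H3K27me3. For VND and NST genes the median gave 2 for AZF1 and 3 for BPC1, and the upper quartile 0 for AZF1, 1 for BPC1 and 5 for H3K27me3. The other values stayed within 1.5 times. Shares over all protein-coding genes at these settings are not given here. A change in these genes and a change in all genes therefore cannot be told apart. No paired analysis was possible because the lists carry no replicate values, and leaving out replicates was not possible for the same reason. Depth is unknown, so regions under a −log10 q of 10 cannot be judged.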
